A study of Mus musculus with 12 samples.

Results

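The cytosolic and mitochondrial heat shock proteins examined here are 10 genes, chosen by gene symbol from the 17358 genes of the deposited table: Hspa1a, Hspa1b, Hspa8, Dnajb1, Hsp90aa1, Hsp90ab1, Hsph1, Hspd1, Hspe1 and Hsf1. They were measured in RNA sequencing libraries of perivascular macrophages of the mouse brain, which sit beside its blood vessels. The aged group was 5 libraries from mice of 18 months and the young group was 7 libraries from mice of 3 months, all given as C57BL/ with no transgene, mutation or treatment in the labels. The series text calls them biological replicates, but the labels do not give the number of animals or cells behind a library, the sex or a sort marker, so p-values reflect only how far these libraries vary, which may in part be technical. RNA was amplified by SMART-seq2, which primes cDNA with oligo-dT and copies whole transcripts from little RNA.

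Heat shock proteins are molecular chaperones. The HSP70 proteins bind unfolded stretches of polypeptide in an ATP-driven cycle started by J-domain partners such as Dnajb1, HSP90 proteins mature kinases and receptors handed on from HSP70, and the Hspd1 and Hspe1 chaperonin folds proteins in the mitochondrial matrix. Under heat or proteotoxic stress the transcription factor Hsf1 binds heat shock elements, inverted repeats of the pentamer nGAAn, and switches on the inducible members within minutes.

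All 10 genes passed the filter on low counts and were among the 9550 genes tested. With edgeR's quasi-likelihood test, 0 of the 10 passed a Benjamini-Hochberg adjusted p of 0.05 between aged and young libraries, beside 1 of all tested genes (0.0105%), Ttr. At an unadjusted p under 0.05 there were 3 of the 10, namely Hspe1, Hspa1b and Hspa8, beside 5.97% of the tested genes. All 3 had positive fold changes (3.85% of the tested genes) and 0 had negative ones (2.12%). DESeq2 also called 0 of the 10 (1.27% of all genes), with 2 at an unadjusted p under 0.05, beside 802 of 9495 genes. With edgeR's bias-adjusted mode 0 of the 10 were called (0.398% of all genes). There 2 had an unadjusted p under 0.05, beside 1098 of 9550 genes. Of the 10 fold changes, 8 were positive, with a median of 0.38 on the log2 scale, beside -0.01 over all tested genes, of which 4724 were positive and 4826 negative. That median was 0.07 without aged libraries 1, 3 and 4, which stood apart from the other 9 on the first principal component of all tested genes. In no member did all aged libraries lie above every young one, or all below every young one, which held for 0.597% of the tested genes. In bulk libraries, less RNA per cell and fewer cells of a type cannot be told apart.

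The promoter letters are shown because heat shock elements are what the inducible members are known to share. RefSeq's table of promoters on GRCm38.p6, which gives 250 bases before to 50 bases after a transcription start, matched 6 of the 10 genes by symbol: Hspa1a, Hspa1b, Dnajb1, Hsph1, Hspd1 and Hspe1. It had no entry matched for Hspa8, Hsp90aa1, Hsp90ab1 or Hsf1. Hspa1a (Entrez 193740, chr17:34969359-34972156) and Hspa1b (Entrez 15511, chr17:34956429-34959238) are neighbouring genes that encode inducible HSP70. The 250 bases before their starts, at chr17:34972157-34972406 and chr17:34959239-34959488 on the minus strand, read as follows, with an inverted repeat of the form GAANNTTC in capitals.
Hspa1a: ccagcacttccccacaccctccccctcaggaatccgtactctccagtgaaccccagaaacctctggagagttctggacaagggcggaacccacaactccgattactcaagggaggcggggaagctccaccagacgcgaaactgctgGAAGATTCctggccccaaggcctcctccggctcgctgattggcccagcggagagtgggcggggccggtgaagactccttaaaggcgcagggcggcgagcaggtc
Hspa1b: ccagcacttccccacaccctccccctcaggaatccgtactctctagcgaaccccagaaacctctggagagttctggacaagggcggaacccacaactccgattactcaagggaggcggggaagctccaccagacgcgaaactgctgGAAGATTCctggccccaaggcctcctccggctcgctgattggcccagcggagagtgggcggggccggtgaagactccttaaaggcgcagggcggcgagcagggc
Counted from 1 at the 5′ end, with the Hspa1a base first, these 250 bases differed at 3 positions, C44T, T47C and T249G. The repeat in capitals covered positions -104 to -97 from the start in both genes.

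Hspd1 (Entrez 15510, chr1:55077833-55088243) and Hspe1 (Entrez 15528, chr1:55088148-55091317) lie head to head on opposite strands, so the same 30 genomic bases, chr1:55088053-55088082, fall before a start of each. They carry 4 alternating inverted units in a row, in capitals and written on each gene's own strand. Hsph1 (chr5:149616843-149636498), which encodes the HSP110 nucleotide exchange factor of HSP70, has the 30 bases chr5:149636351-149636380 on the minus strand in the last line.
Hspd1: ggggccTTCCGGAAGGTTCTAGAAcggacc
Hspe1: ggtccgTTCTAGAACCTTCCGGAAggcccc
Hsph1: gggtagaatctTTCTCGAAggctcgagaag
The capitals lie at -144 to -127 from 1 of 2 annotated starts of Hspd1 and inside the gene as seen from the other, at -89 to -72 from the start of Hspe1 and at -33 to -26 from a start of Hsph1. A search for 2 inverted units (GAANNTTC or TTCNNGAA, each its own reverse complement, so 1 strand covers both) matched 6 of the 9 windows of the 6 genes with an entry, beside 15.1% of all 32851 promoter windows. A search for 3 units (GAANNTTCNNGAA or TTCNNGAANNTTC, reverse complements of each other, each of which contains 2 of the shorter matches) matched 4 of the 9, in Hsph1, Hspd1 and Hspe1, beside 0.603% of all windows. Windows of 1 gene overlap or share a locus, and both windows of Hsph1 held the same matches. Those of Hspd1 and Hspe1 are the same stretch read on opposite strands, and those of Hspa1a and Hspa1b stand in near-identical windows. The counts of 6 and 4 windows are therefore not counts of separate sites. Of the 2 windows of Hspd1, 1 held neither set of letters. In Hsph1 the match of 3 units began at 37 after the start and is not printed. Neither set of letters was found in the windows of Dnajb1 (chr8:83608175-83612653). A match describes letters only, and no binding was measured here.

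**Figure D1:**
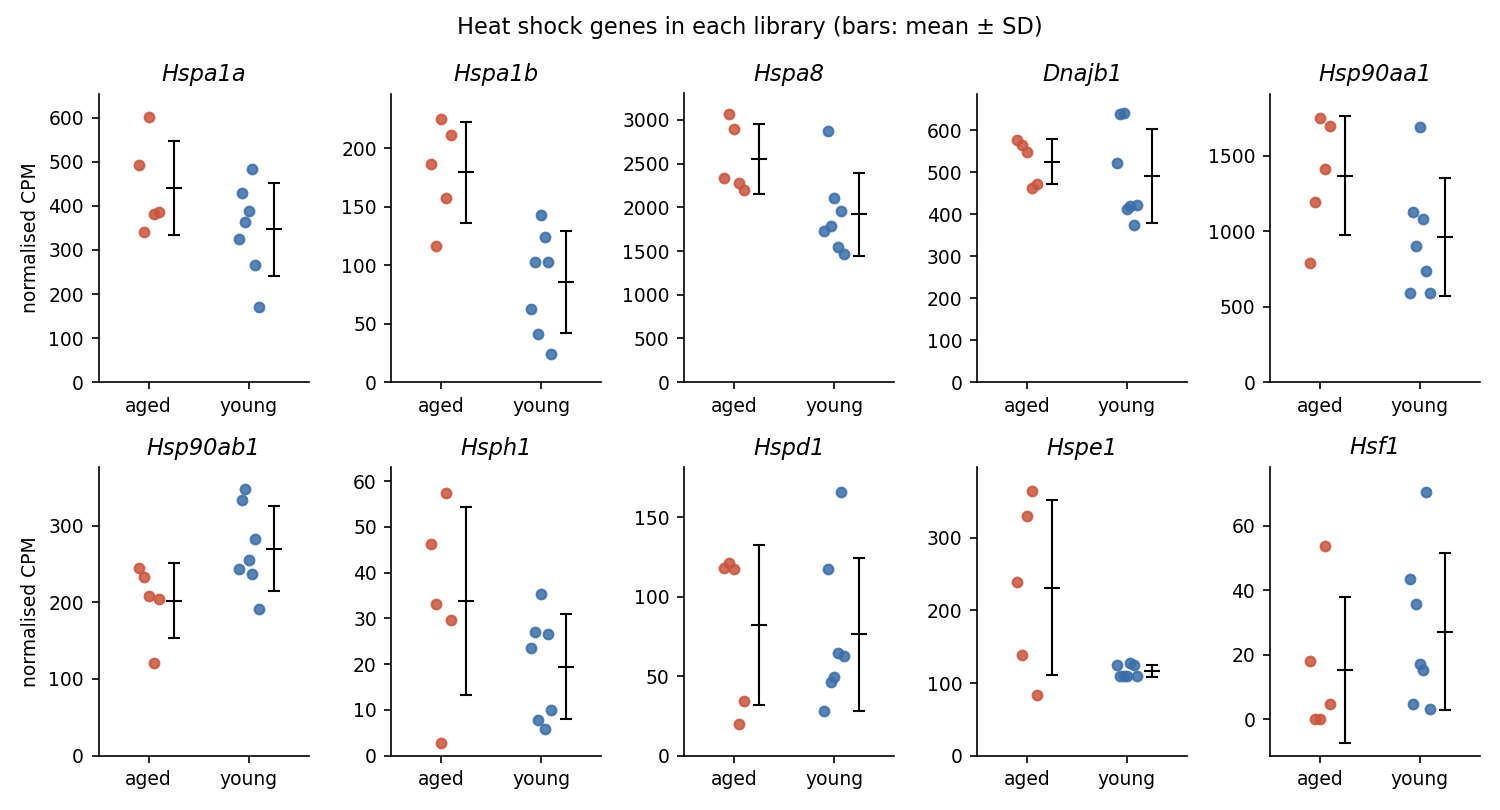
Level of each of the 10 heat shock genes in every library, in normalised CPM (vertical axes on a linear scale that differs between panels), for 5 aged libraries (red) at the left and 7 young libraries (blue) at the right. Bars give the mean and SD of each group. The groups overlap in every panel, 4 of 5 aged libraries lie above all young ones for Hspa1b and Hspe1, and the 7 young points of Hspe1 lie between 109 and 128 CPM.

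The levels given here are normalised CPM, counts scaled by library total and TMM factor. The members together took between 0.463% and 0.597% of the estimated counts in an aged library, against 0.309% to 0.644% in a young one. On the per-length scale of the deposited FPKM values, Hspa8 was the highest, with a mean of 1059 FPKM over the 12 libraries, above 99.1% of the tested genes, and it exceeded Hsp90aa1 (410 FPKM) in 12 of 12 libraries. Hsp90aa1 was above Hspe1 (223 FPKM) in 11 of 12 libraries. Hspe1, Dnajb1 (169 FPKM), Hspa1a (140 FPKM) and Hsp90ab1 (99.4 FPKM) followed, each above the next in 9 of 12 libraries, so their order varied from library to library. Hsp90ab1 exceeded Hspa1b (45.1 FPKM) in 11 of 12 libraries, whereas Hspa1b exceeded Hspd1 (34.2 FPKM) in only 7 of 12. The lowest levels were those of Hsf1 (11.1 FPKM) and Hsph1 (7.94 FPKM), and Hsf1 was above Hsph1 in 5 of 12 libraries.

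The inducible HSP70 pair was higher on average in aged libraries, without passing the adjusted threshold. Hspa1a had 493, 341, 602, 381 and 385 normalised CPM in aged libraries 1 to 5, against a lowest of 170.4, a median of 364 and a highest of 484 in young libraries. The groups overlapped, with 2 aged libraries above all young ones. Its means were 441 ± 107 in aged and 347 ± 105 in young libraries (SD, n = 5 and n = 7), which gave a log2 fold change of 0.35 ± 0.25 (SE, edgeR adjusted p = 0.999). It was 0.19 without aged library 3, 0.23 without young library 7, and 0.062 without aged libraries 1, 3 and 4. Hspa1b had 186, 116, 225, 157 and 211 normalised CPM in aged libraries 1 to 5, against a lowest of 24.5, a median of 103 and a highest of 143 in young libraries. Here 4 of the 5 aged libraries lay above every young one and the other lay above the young median. Means of 179 ± 43.5 in aged and 85.6 ± 43.9 in young libraries gave a log2 fold change of 1.06 ± 0.39 (SE, edgeR adjusted p = 0.521).

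The separate values of Hspa1a and Hspa1b are uncertain, because the coding sequences of the pair are 99.5% identical in GENCODE's GRCm38 transcripts, with 7 mismatches and 3 gap bases, and reads are divided between them. Their estimated counts were fractional in 12 of 12 libraries while the sum of the pair was a whole number, within 0.011, in 12 of 12. Of windows of 100 bases in the Hspa1a coding sequence, 68.1% occurred unaltered in Hspa1b, whereas 0 of 711 such windows of its 3′ untranslated region did. The share of the pair given to Hspa1b was 27.4%, 25.4%, 27.2%, 29.2% and 35.4% in aged libraries 1 to 5, against a lowest of 10.1%, a median of 19.3% and a highest of 27.8% in young libraries. It overlapped between the groups, with means of 28.9 ± 3.86% in aged and 19.0 ± 6.71% in young libraries (SD), and it was looked at after the values were seen and not tested.

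Summed, which does not depend on how reads were divided, the pair had 679, 458, 827, 538 and 596 normalised CPM in aged libraries 1 to 5. The young libraries had a lowest sum of 195, a median of 405 and a highest of 608. All 5 aged libraries lay above the young median and 2 lay above all young libraries. The summed log2 fold change was 0.52 ± 0.25 (SE), with means of 620 ± 141 in aged and 432 ± 138 normalised CPM in young libraries (SD), and an edgeR adjusted p of 0.851. Without aged libraries 1, 3 and 4 it was 0.28.

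Hspa8 (chr9:40801276-40805202), the constitutive HSP70 that also uncoats clathrin vesicles and drives chaperone-mediated autophagy, was the most abundant member. It had 2335, 3064, 2894, 2275 and 2199 normalised CPM in aged libraries 1 to 5, against a lowest of 1466, a median of 1782 and a highest of 2877 in young libraries. All 5 aged libraries were above the young median and 2 were above all young libraries. Means of 2553 ± 396 in aged and 1923 ± 475 in young libraries gave it a log2 fold change of 0.41 ± 0.19 (SE, edgeR adjusted p = 0.825). Its locus also holds small nucleolar RNAs (Snord14c, Snord14d and Snord14e), which were not analysed here.

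Dnajb1, the HSP40 partner that stimulates the HSP70 ATPase, had 578, 564, 547, 463 and 472 normalised CPM in aged libraries 1 to 5. The young libraries had a lowest value of 375, a median of 423 and a highest of 642. The aged libraries lay inside the young range and spread little, with a coefficient of variation of 10.2% beside 22.8% in young libraries. Means of 525 ± 53.5 in aged and 490 ± 112 in young libraries gave a log2 fold change of 0.10 ± 0.20 (SE, edgeR adjusted p = 0.999), which was -0.01 on the scale of log2(FPKM + 1). Hsph1 had 46.3, 33.1, 2.70, 57.4 and 29.7 normalised CPM in aged libraries 1 to 5, against a lowest of 5.78, a median of 23.6 and a highest of 35.4 in young libraries. Of the aged libraries 1 was below all young ones and 2 were above them. Its log2 fold change was 0.80 ± 0.79 (SE, edgeR adjusted p = 0.999), with means of 33.8 ± 20.6 in aged and 19.5 ± 11.5 in young libraries, and 0.52 without aged library 4.

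The cytosolic HSP90 paralogs differed in the sign of their fold changes. Hsp90aa1 (chr12:110691036-110696395) encodes the stress-inducible form, and Hsp90ab1 (chr17:45567778-45573261) the constitutive one. Hsp90aa1 had 794, 1193, 1751, 1417 and 1697 normalised CPM in aged libraries 1 to 5, against a lowest of 588, a median of 903 and a highest of 1694 in young libraries. Of the aged libraries 4 were above the young median, and library 1 was below it. Its means were 1370 ± 393 in aged and 962 ± 389 in young libraries, which is a log2 fold change of 0.51 ± 0.27 (SE, edgeR adjusted p = 0.949). Hsp90ab1 had 244, 232, 209, 121 and 205 normalised CPM in aged libraries 1 to 5, against a lowest of 191, a median of 255 and a highest of 347 in young libraries. All 5 aged libraries were below the young median, and 1 was below all young libraries. Means of 202 ± 48.5 in aged and 270 ± 55.4 in young libraries gave a log2 fold change of -0.42 ± 0.24 (SE, edgeR adjusted p = 0.990).

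Ratios within a library do not depend on how libraries are scaled, and 4 were compared between the groups with a two-sided exact permutation of all 792 divisions into 5 and 7, which can give no p under 0.00126. The count of Hsp90aa1 over that of Hsp90ab1 was 3.25, 5.13, 8.38, 11.7 and 8.29 in aged libraries 1 to 5, against 2.42 to 6.64 in young libraries. All 5 aged libraries were above the young median and 3 were above all young libraries. The mean log2 ratio was 2.75 ± 0.72 in aged and 1.77 ± 0.53 in young libraries (SD), a difference of 0.98 (exact permutation p = 0.0265, 0.106 adjusted over the 4 ratios). Without aged library 1 the difference was 1.24 and the adjusted exact permutation p was 0.0364. No other single library left out brought it under 0.05. The adjusted exact permutation p then ran from 0.0519 without young library 4 to 0.279 without aged library 4.

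The other ratios did not pass either. Dnajb1 over Hspa8 ranged from 0.184 to 0.247 in aged libraries, against 0.191 to 0.360 in young ones, and all 5 aged libraries lay below the young median. The difference in log2 ratio was -0.31 (exact permutation p = 0.0960, adjusted 0.192), with means of -2.27 ± 0.17 in aged and -1.97 ± 0.34 in young libraries. Hspa1a plus Hspa1b over Hspa8, inducible over constitutive HSP70, had mean log2 ratios of -2.06 ± 0.40 in aged and -2.20 ± 0.48 in young libraries. That difference of 0.14 (exact permutation p = 0.607, adjusted 0.607) was -0.11 without aged libraries 1, 3 and 4. Hspd1 over Hspe1 had mean log2 ratios of -1.63 ± 1.51 in aged and -0.83 ± 0.85 in young libraries, a difference of -0.81 (exact permutation p = 0.292, adjusted 0.389) that was 0.09 without the same 3 libraries.

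**Figure D2:**
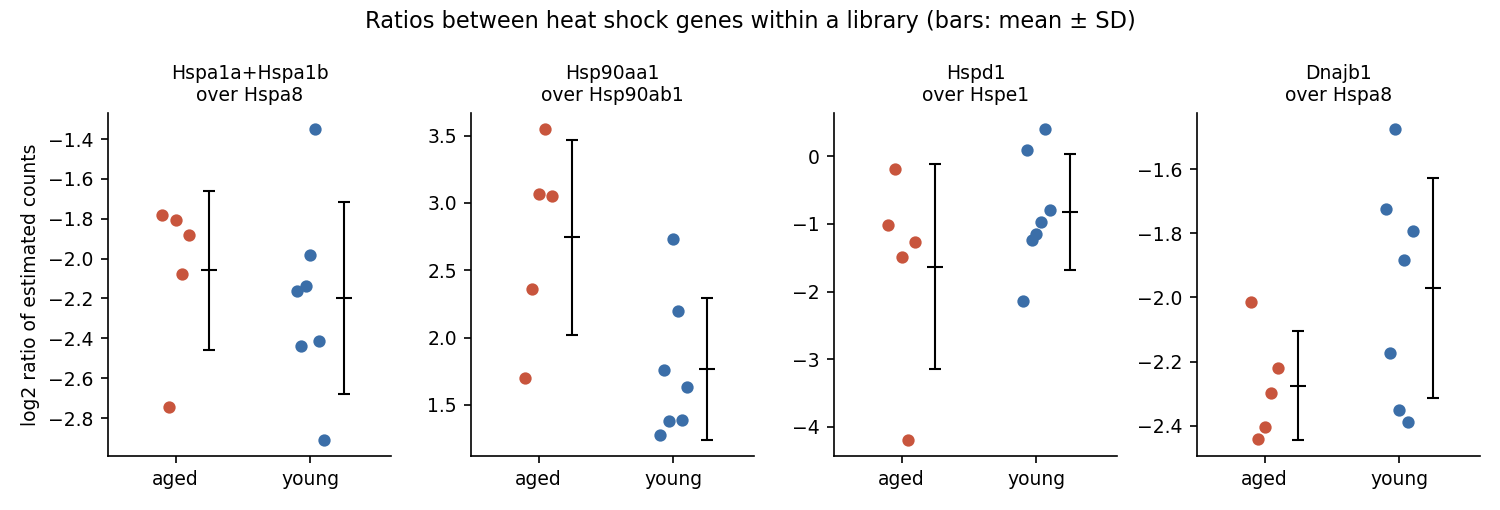
Log2 ratios of estimated counts between heat shock genes within each library (vertical axes, scaled to each panel), with 5 aged libraries (red) left of 7 young libraries (blue) and bars for the mean and SD. Hsp90aa1 over Hsp90ab1 averaged 2.75 in aged and 1.77 in young libraries, with 3 aged libraries above all young ones, and the other 3 ratios overlap more.

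The mitochondrial chaperonin genes behaved unlike each other. Hspe1, the co-chaperonin lid, had 239.6, 138, 331, 365 and 83.3 normalised CPM in aged libraries 1 to 5, against a lowest of 109, a median of 110.2 and a highest of 128 in young libraries. Aged libraries 1 to 4 lay above every young library and library 5 lay below every one. Means of 231 ± 121 in aged and 116 ± 8.74 in young libraries gave a log2 fold change of 0.99 ± 0.32 (SE, edgeR adjusted p = 0.398), the lowest p among the members and rank 145 of 9550. Without aged libraries 1, 3 and 4, which hold its highest levels, the log2 fold change was -0.07.

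The evenness of Hspe1 in young libraries stood out from its spread in aged ones. Its coefficient of variation was 52.2% in aged libraries and 7.51% in young libraries. Over 6693 tested genes of at least 10 CPM the median coefficient was 68.9% in aged and 57.2% in young libraries, and 0.0% of those genes had a lower one than Hspe1 in young libraries. This was noticed in the values and not tested.

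Hspd1, the chaperonin ring subunit, had 118, 121, 117, 19.9 and 34.4 normalised CPM in aged libraries 1 to 5, against a lowest of 28.4, a median of 62.8 and a highest of 166 in young libraries. Aged libraries 1 to 3 lay above the young median and libraries 4 and 5 below it. Means of 82.2 ± 50.5 in aged and 76.5 ± 48.2 in young libraries gave a log2 fold change of 0.10 ± 0.52 (SE, edgeR adjusted p = 0.999). Its sign turned when any one of aged libraries 1, 2 and 3 or young library 1 was left out, with values between -0.08 and 0.41 over all 12 libraries left out in turn. The annotated genes overlap by 96 bases on opposite strands, and reads there cannot be assigned by strand. GENCODE also names 5 pseudogenes after Hspd1 and 6 after Hspe1, with which reads may be shared, and 0 after each of the other 8 members.

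**Figure D3:**
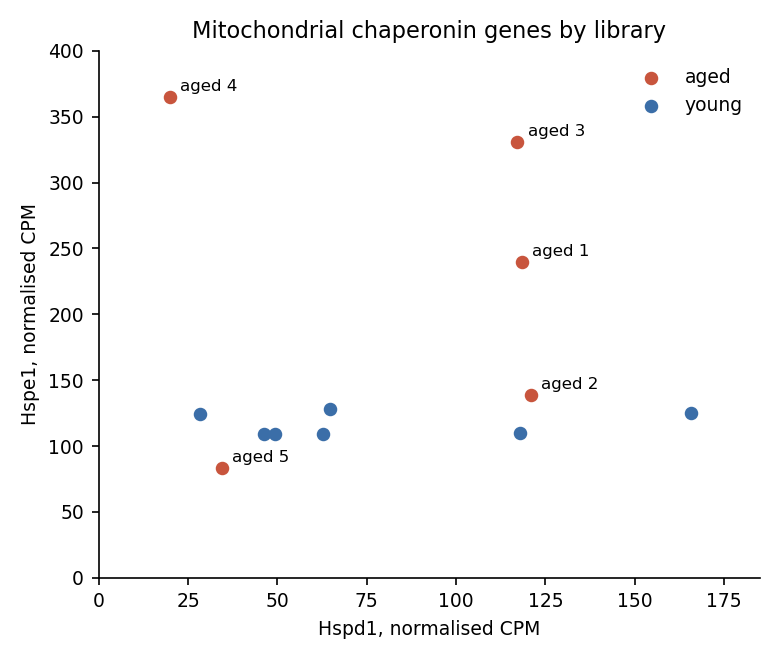
Hspe1 against Hspd1 in normalised CPM (both axes linear and from 0), 1 point per library, with aged libraries (red) labelled by number and young libraries in blue. Young libraries span 28.4 to 166 CPM of Hspd1 at 109 to 128 CPM of Hspe1, and aged library 4 has the highest Hspe1 (365 CPM) with the lowest Hspd1 (19.9 CPM).

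Hsf1 (chr15:76477362-76501155), the master regulator of the heat shock response, was low and uneven. It had 18.3, 0.0337, 0.05, 53.8 and 4.79 normalised CPM in aged libraries 1 to 5, where libraries 2 and 3 held a single estimated count each. In young libraries the lowest was 3.09, the median 17.3 and the highest 70.7. The aged libraries included the lowest 2 values of all, and library 4 lay above 6 of the 7 young libraries. Its log2 fold change of -0.82 ± 1.32 (SE, edgeR adjusted p = 0.999) was between -3.53 and -0.39 under the alternatives, with means of 15.4 ± 22.7 in aged and 27.2 ± 24.3 in young libraries. It was -0.50 without aged library 2, -2.25 without aged library 4, -0.39 without young library 6 and -3.53 without aged libraries 1, 3 and 4.

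**Figure D4:**
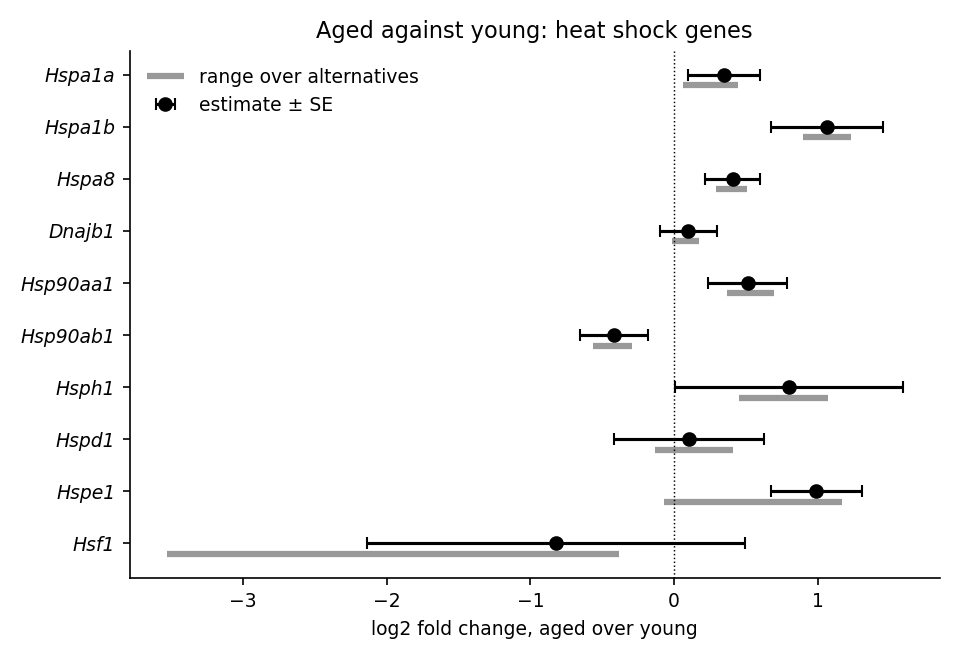
Each heat shock gene (rows) with its log2 fold change of aged over young libraries (horizontal axis), as estimate with SE (black) and as the range over 21 alternatives (grey). Estimates run from -0.82 for Hsf1 to 1.06 for Hspa1b, and the grey range includes 0 for Dnajb1, Hspd1 and Hspe1.

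Across the 12 libraries, 5 pairs of members were compared on log2(normalised CPM + 1). Hspa1a and Hspa1b varied together (Pearson r = 0.77, permutation p = 0.00418, adjusted over the 5 pairs 0.0209; Spearman rho = 0.76, permutation p = 0.00551). Without aged library 3 and young library 7, the farthest from the median of Hspa1a, r was 0.39. Leaving out its extremes also narrows its range, which can by itself lower r. How far the relation rests on those libraries was therefore not decided. Within the 7 young libraries r was 0.73 (exact permutation p = 0.0562). The pair also shares the reads divided between its members. Hspa8 and Hsp90aa1 had r = 0.57 (permutation p = 0.0547, adjusted 0.137; rho = 0.62, permutation p = 0.0374), 0.48 without aged library 2 and young library 7, and 0.50 within young libraries (exact permutation p = 0.255). Hspa1a and Dnajb1 had r = 0.41 (permutation p = 0.187, adjusted 0.311; rho = 0.27, permutation p = 0.393), 0.29 without aged library 3 and young library 7.

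Hspd1 and Hspe1, in spite of their shared stretch between the starts, had r = 0.01 (permutation p = 0.976, adjusted 0.997; rho = 0.27, permutation p = 0.390). Without aged library 4 and young library 6, the farthest from the median of Hspd1, r was 0.62, and within young libraries it was 0.07 (exact permutation p = 0.904). Hsp90aa1 and Hsph1 had r = -0.0011 (permutation p = 0.997, adjusted 0.997; rho = 0.17, permutation p = 0.603), and -0.11 without young libraries 1 and 7.

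The tested genes outside the group with the highest Pearson r to a member over the 12 libraries were found for 4 members, as a description with no test. For Hspa1a they were Rybp (0.88), Tcea1 (0.87) and Hsp90b1 (0.86), the HSP90 of the endoplasmic reticulum. Their Spearman rho was 0.93, 0.34 and 0.65, so Tcea1 was much less close by rank. For Hspa8 they were Zfp677 (0.88), Pcif1 (0.82) and Itpr1 (0.80). For Hsp90aa1 they were Jmjd1c (0.94), Kdm1b (0.91) and Zfp617 (0.90). For Hspd1 they included Tyw5 (0.87) and Inafm1 (0.86). Spearman rho of the genes named for Hspa8, Hsp90aa1 and Hspd1 ran from 0.81 to 0.95. All of these values share the same 12 libraries and their depth, and aged libraries 1, 3 and 4, which stand apart, are among the points.

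Other genes of the chaperone network were grouped in lists chosen by function, none of whose members passed the adjusted threshold. Among HSP70 partners, the J-domain proteins and nucleotide exchange factors, 23 genes were tested, 11 with positive and 12 with negative fold changes (median -0.08). An unadjusted p under 0.05 was found for 5 of them, beside 5.97% of all tested genes. Dnaja1, a farnesylated J-domain partner of HSP70, had 515, 591, 987, 859 and 733 normalised CPM in aged libraries 1 to 5, against 234 to 635 in young libraries. Its log2 fold change was 0.79 (edgeR adjusted p = 0.407). Bag5, a nucleotide exchange factor, had 1.25, 7.76, 0, 6.03 and 7.33 normalised CPM in aged libraries, against 20.6 to 76.9 in young ones. Those groups do not overlap, which held for 0.597% of all tested genes, and the log2 fold change of -3.23 did not pass (edgeR adjusted p = 0.451).

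Of 17 HSP90 co-chaperones 9 had positive and 8 negative fold changes (median 0.15), and 1 had an unadjusted p under 0.05, beside 5.97% of all tested genes. Ptges3, the p23 co-chaperone that closes the HSP90 clamp, averaged 690.1 ± 354 in aged and 362 ± 150.2 normalised CPM in young libraries (a difference of 0.93 in log2, edgeR adjusted p = 0.631). Aged libraries 1 to 5 had 658.9, 211.6, 1058.2, 1013.0 and 508.6, against a highest of 508.1 in young libraries. Ahsa1, the activator of the HSP90 ATPase, averaged 13.98 ± 16.8 in aged and 43.3 ± 27.8 in young libraries (-1.63, edgeR adjusted p = 0.999). Of 13 other mitochondrial chaperones and proteases 5 were positive and 8 negative (median -0.20), with 2 at an unadjusted p under 0.05, beside the same 5.97%. Yme1l1, a protease of the inner membrane, averaged 710.1 ± 456 in aged and 287 ± 124 in young libraries (1.31, edgeR adjusted p = 0.383). Aged libraries 1 to 5 had 633, 157, 1335, 967 and 459, against a highest of 471 in young libraries. Only aged libraries 1, 3 and 4 thus lay above all young ones. Dnlz, a partner of mitochondrial HSP70, had 11.6, 3.81, 17.8, 15.7 and 1.14 normalised CPM in aged libraries 1 to 5, against 19.6 to 52.0 in young libraries. Its aged values all lay below the young ones, at a log2 fold change of -1.97 (edgeR adjusted p = 0.622), and groups did not overlap in 0.597% of all tested genes.

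The cytosolic CCT chaperonin and its prefoldin partner had 14 tested genes, 7 positive and 7 negative, with a median of 0.00. The lowest p there belonged to the prefoldin subunits Vbp1 (log2 fold change 1.01, edgeR adjusted p = 0.565) and Pfdn4 (1.19, edgeR adjusted p = 0.667). Vbp1 had 129, 70.0, 336, 228 and 110 normalised CPM in aged libraries 1 to 5, against a highest of 124 in young libraries. Of the small heat shock proteins 5 were analysed, and 2 of them passed the filter on low counts. Hspb1 averaged 62.5 ± 28.7 in aged and 35.6 ± 24.2 normalised CPM in young libraries (0.81, edgeR adjusted p = 0.999), and Cryab 15.3 ± 15.5 in aged and 13.2 ± 13.1 in young libraries (0.22, edgeR adjusted p = 0.999).

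Hsf2, a paralog of Hsf1 that binds the same elements, had the lowest p of the chaperone lists. It had 199, 71.5, 466, 394 and 173 normalised CPM in aged libraries 1 to 5, against a lowest of 55.9, a median of 70.7 and a highest of 125 in young libraries. Aged library 2 lay within the young range and the other 4 above it. Its log2 fold change was 1.59 ± 0.39 (SE, edgeR adjusted p = 0.203), so it did not pass either. Hsbp1, a small protein that binds Hsf1, had -0.24 (adjusted p = 0.999).

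Of 15 other heat-inducible genes, some of which stand in the lists above, 11 were positive and 4 negative (median 0.52). An unadjusted p under 0.05 was found for 3, beside 5.97% of all tested genes, and Cacybp was among the 3 (0.96, edgeR adjusted p = 0.538). Immediate-early genes, which cell dissociation is known to induce together with heat shock genes, were described beside them: of 20 tested, 12 were positive and 8 negative (median 0.38). An unadjusted p under 0.05 was found for 6 of the 20, beside the same 5.97%. The immediate-early genes summed to 22370 to 29708 in aged and 17507 to 31051 normalised CPM in young libraries. Junb had the lowest p (-1.14, adjusted p = 0.187), with 189 ± 70.6 in aged and 415 ± 97.5 normalised CPM in young libraries, and Klf2 was next (0.74, adjusted p = 0.286). The part of dissociation in the members' levels was not tested.

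Library totals ranged from 23214836 to 30628787 estimated counts, at which 3 counts, the level a count of 0 allows, correspond to 0.0979 to 0.129 CPM. The 11 perivascular macrophage markers were all tested and summed to 11386 to 16245 in aged and 11512 to 19842 normalised CPM in young libraries. That sum includes Csf1r and Aif1 and does not by itself separate the labelled cells from microglia. Within the list, Mrc1 had 2111 to 2947 in aged and 1610 to 3007 in young libraries. Cd163 had 383 to 562 in aged and 212 to 403 in young libraries. The 10 microglia markers were all tested too and summed to 3828 to 5696 in aged and 3615 to 7007 in young libraries. Of these 10, 8 had negative fold changes (median -0.54). The 2 at an unadjusted p under 0.05 had opposite signs, beside 5.97% of all tested genes under that p. Markers of endothelium (0.0479 to 12.9 in aged and 0.0329 to 27.8 in young libraries), mural cells (0.05 to 8.09 and 0.357 to 17.3), oligodendrocytes (27.2 to 84.3 and 29.0 to 85.03), astrocytes (11.7 to 140.1 and 14.6 to 67.7) and neurons (20.6 to 96.0 and 1.89 to 48.2) overlapped between the groups in their sums. Of 7 neuron markers tested 6 had positive fold changes (median 0.90, 0 at an unadjusted p under 0.05). The part of these cell types in the members' levels was not tested. Of 8 choroid plexus markers 3 were tested and 1, Ttr, passed, and the list summed to 201 to 1110 in aged and 59.4 to 152 in young libraries without overlap, and their part in the members' levels was not tested.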

How the data were processed

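The authors deposited 1 table with estimated counts per gene and normalised values without a named unit, read here from their size as FPKM deposited by the authors. Per the submitters' processing notes, the build was GRCm38 (mm10) and the tools were RSEM 1.2.12, Bowtie2 2.2.5, DESeq2 1.4.5 and HISAT2 2.0.4, listed with no role or order. Which annotation was counted is not stated there. The chemistry marks no strand and carries no molecular identifiers, so amplified copies count as separate reads, and floors cover counting error only.

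Estimated counts, of which 88.2% to 90.6% per library were whole, were rounded and tested with edgeR 4.0.16 in R 4.3.3: TMM scaling, filterByExpr on group (minimum count 10), robust quasi-likelihood test, all 12 libraries in 1 fit with group as the only term, Benjamini-Hochberg adjustment over 9550 genes, threshold 0.05. The common biological coefficient of variation was 1.33. A positive log2 fold change means a higher level in aged libraries. Levels are TMM-normalised CPM, and SE comes from the quasi-likelihood F. The steps were tested on simulated data. Ratios used log2((count a + 1)/(count b + 1)), and correlations used 100000 permutations, or all of them within young libraries (SciPy 1.17.1). DESeq2 1.42.0 and limma 3.58.1 were alternatives. Damaged gene symbols (23) were restored through Entrez identifiers, of which 17244 of 17358 matched RefSeq's GRCm38.p6 table, the source of coordinates (1-based) and promoters.

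The members and lists were chosen with earlier results of these data known. The text names all members, the 2 tested genes of lowest p in each pathway list and any there that passed, Ttr as the 1 gene that passed, and the 3 genes most like each of 4 members, of which 1 is not reported here.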

Additional observations from a re-analysis of the deposited data

How the results depend on the processing

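No alternative called any of the 10 heat shock genes: over 21 settings the lowest adjusted p was 0.146, for Hspe1 without aged library 2. Signs turned for Dnajb1 on FPKM (-0.012), Hspd1 on FPKM (-0.13) and with single libraries left out (-0.082 to 0.41), and Hspe1 without aged libraries 1, 3 and 4 (-0.068); the cause was not tested. The median of all genes moved from -0.01 to -0.17 on FPKM, -0.13 with voom and -0.16 with the replicate block. In those settings the members' median lay 0.43, 0.53 and 0.46 above it, beside 0.39 in the reported fit. That gap was 0.13 without aged libraries 1, 3 and 4, 0.29 without young library 7 and 0.30 without aged library 3. For all genes, the calls higher and lower in aged libraries were 1 and 0 as reported, 64 and 57 with DESeq2, 36 and 2 with edgeR's bias-adjusted mode, 3 and 3 on FPKM, 4 higher with upper-quartile scaling, 2 with voom, 13 with no filter and 0 without aged libraries 1, 3 and 4. With single libraries left out they ranged from 0 to 61 higher and 0 to 14 lower, the most without aged library 2.

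The difference in log2 ratio of Hsp90aa1 over Hsp90ab1 ranged from 0.78 to 1.24 with single libraries left out. For Hspa1a plus Hspa1b over Hspa8 it was -0.046 with the replicate block and -0.11 without aged libraries 1, 3 and 4, which also gave 0.093 for Hspd1 over Hspe1. The correlation of Hspa1a with Hspa1b was 0.69 without those 3 libraries and no longer passed, and that of Hspa8 with Hsp90aa1 was 0.69 on FPKM and passed. Those of Hspd1 with Hspe1 (-0.087 on FPKM) and of Hsp90aa1 with Hsph1 (0.081 on FPKM, 0.38 without the 3 libraries) turned sign near 0. For the summed Hspa1a and Hspa1b, settings added after seeing the data gave 0.28 to 0.52, all without a call.

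Replicate numbers 1 to 5 occur in both groups, but same-numbered libraries did not deviate together (correlations -0.04 to 0.09). Of the aged libraries, 0 of 5 correlated best with the young library of its own number. The labels do not say what the numbers mean, and whether same-numbered libraries share a batch was not tested. With the replicate block, all genes gave 1 call and the members 0, with Hspe1 at 0.81 and Hspa1b at 1.01. A count of 0 allows 0.0979 to 0.129 CPM at these depths, and of all levels of the 10 genes only those of Hsf1 in aged libraries 2 and 3 lay below that.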
